A study of Mus musculus with 3 samples.

Results

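Surface glycans are built in the Golgi by families of glycosyltransferases, enzymes that each add a given sugar in a given linkage. The genes described here are the 63 of 16129 in the deposited expression table whose symbols begin with St3gal, St6gal, St8sia, B4galt, B3gnt, B3galt, Galnt, Gcnt, Fut, Mgat, Man1a or Man2a followed by a digit. They were chosen by name and not by level, though with earlier results of these data known, and were grouped by linkage class from the symbol. Enzymes of several linkages share the Fut class, and likewise the Mgat class. The 3 members of the last class, Man1a2, Man2a1 and Man2a2, encode mannosidases, which trim N-glycans and transfer no sugar, so the set as a whole is wider than glycosyltransferases. A further 15 protein-coding genes of the same families in the RefSeq annotation were not analysed here.

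The cells were type 2 innate lymphoid cells (ILC2s), lymphocytes of barrier tissues that make type 2 cytokines, sorted by flow cytometry from digested lungs of wild type mice treated in vivo with the alarmin IL-33. All 3 libraries form 1 group, and no untreated cells were analysed here, so nothing below measures an effect of IL-33. The labels give neither the mouse strain, age, dose and gate nor whether each library is a different animal, so their spread may be technical only. The libraries held 19948056, 19883728 and 19976129 estimated reads in replicates 1, 2 and 3. All 14 ILC2 markers averaged over 100 TPM, the deposited measure of transcript level, which is corrected for transcript length. Among 14 macrophage and monocyte markers 10 reached 1 TPM in each library, headed by Chil3 at 338, 327 and 461 TPM, and their summed level was 406, 398 and 557 TPM in replicates 1, 2 and 3. The B cell, T cell, endothelial and stromal, and granulocyte lists had between 1 and 2 detected genes each, while the epithelial list had 6 of 12. The highest genes of these lists were Pecam1, at 79.8 ± 2.76 TPM (SD, n = 3), Cdh1, at 23.3 ± 1.02 TPM, and Cd79b, at 21.9 ± 1.82 TPM. In sorted cells taken in bulk, fewer cells that express a gene and less RNA per cell cannot be told apart.

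Glycan building follows a fixed order. An N-glycan is trimmed by mannosidases, branched by the Mgat enzymes, extended with galactose and N-acetylglucosamine (GlcNAc), and capped with sialic acid or fucose. A mucin-type O-glycan starts when a Galnt enzyme adds N-acetylgalactosamine (GalNAc) to serine or threonine, and Gcnt1 then makes the core 2 branch that carries selectin ligands on leukocytes. Selectins and siglecs read sialylated ends, and galectins read galactose-bearing chains such as poly-lactosamine. These lectins guide lymphocyte traffic and signalling.

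Detection was set at 1 TPM, to be reached in every library. Of the 63 members 47 were detected (74.6%), beside 67.3% of all listed genes. The mean level was 10 TPM or higher for 33 members (52.4%), beside 51.2% of all listed genes. It was 100 TPM or higher for 3 members (4.76%), beside 10.3% of all listed genes. The median member stood at 13.1 TPM and the median listed gene at 11.2 TPM, so the families as a whole lay near the middle of the profile. Their summed level was 2061, 2108 and 2140 TPM in replicates 1, 2 and 3, of which the 5 highest members took 40.2 ± 0.228% (SD, n = 3). Values given as mean ± SD below are over the 3 libraries.

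**Figure D1:**
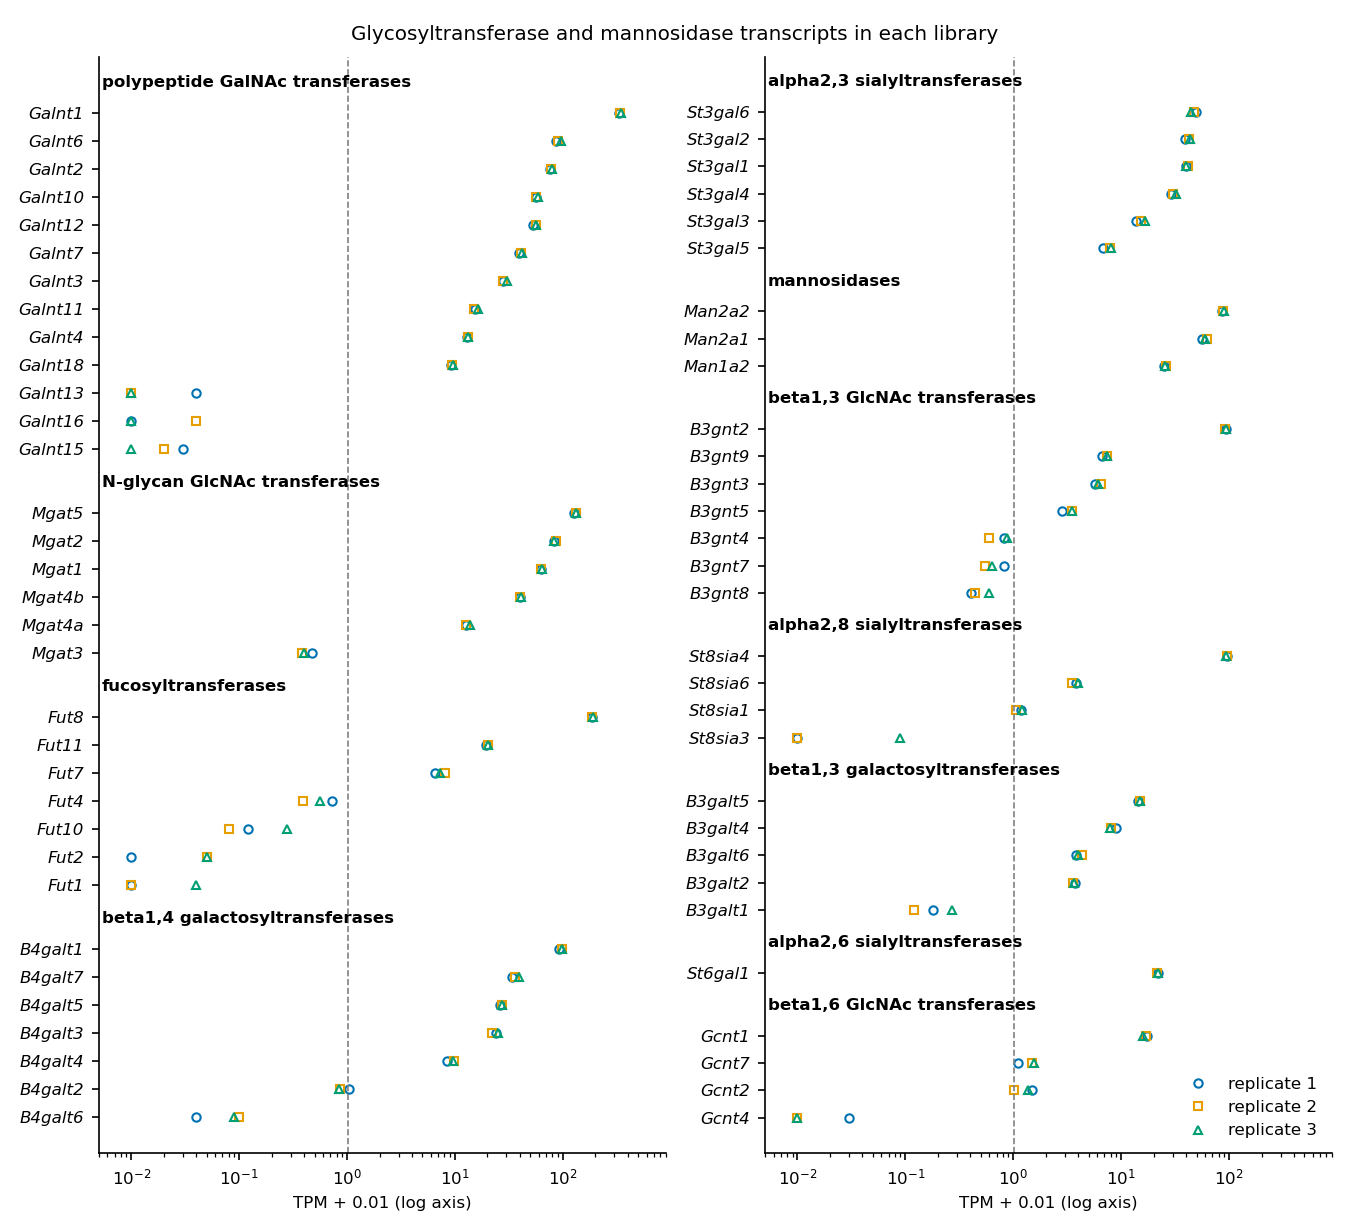
TPM of the 63 members in each library, by linkage class, on a log axis after adding 0.01. Each symbol is 1 library and the dashed line marks 1 TPM. Galnt1 stands highest, between 334 and 344 TPM, and 16 members fall short of the line in at least 1 library.

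In 4 classes 1 enzyme held the bulk of the transcripts. The leading member held 95.1 ± 0.415% of the summed TPM of the alpha2,8 sialyltransferases (St8sia4), 87.0 ± 0.349% of that of the fucosyltransferases (Fut8), 86.2 ± 1.54% of that of the beta1,6 GlcNAc transferases (Gcnt1) and 83.5 ± 0.826% of that of the beta1,3 GlcNAc transferases (B3gnt2). The alpha2,3 sialyltransferases were the most evenly divided of the classes with several members, with 25.9 ± 1.87% in St3gal6. In reads without the length correction St3gal1 led that class with 35.2 ± 0.540%, ahead of St3gal2 with 30.2% and St3gal6 with 17.0%. The summed level was highest for the polypeptide GalNAc transferases, at 726 ± 18.0 TPM or 34.5 ± 0.276% of the TPM of all members. It was lowest for the beta1,6 GlcNAc transferases, at 19.3 ± 0.543 TPM. That class holds the Gcnt genes alone, and Mgat5, which adds a beta1,6 branch to N-glycans, is counted with the Mgat genes. Its level was close to the 21.7 ± 0.395 TPM of St6gal1, the only alpha2,6 sialyltransferase among the members. The St6galnac genes, which the symbol rule leaves out, are given with the O-glycan list.

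**Figure D2:**
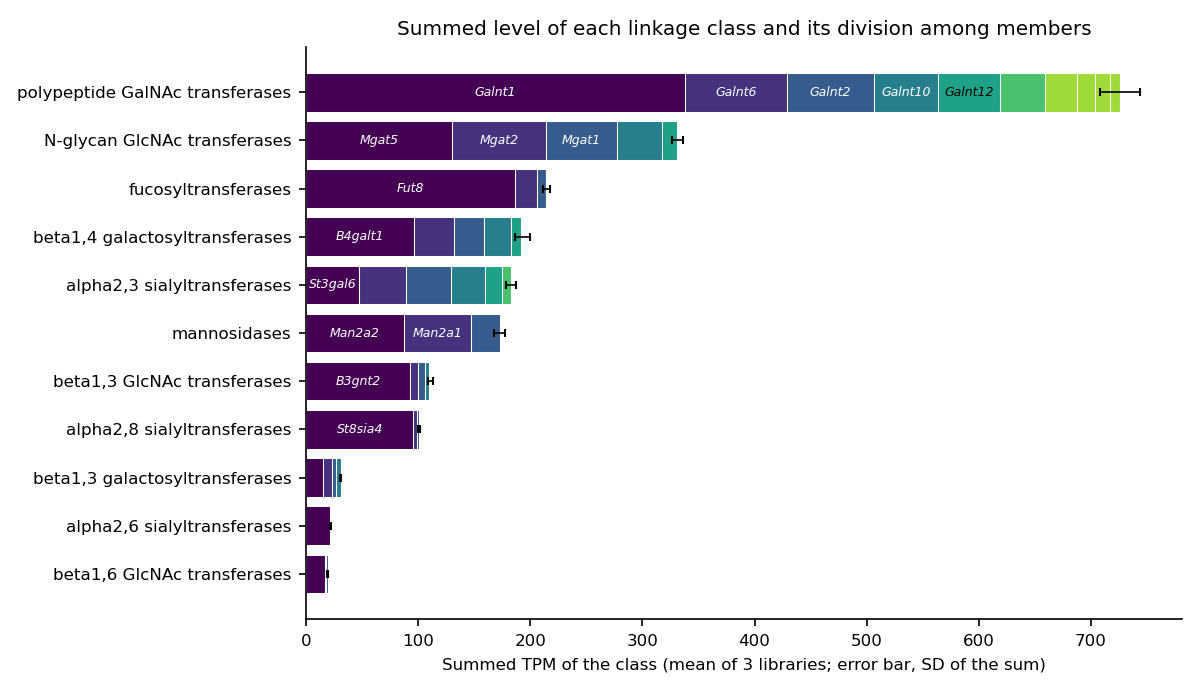
Summed mean TPM of each class, grouped by symbol, with 1 segment per member in order of level and error bars for the SD of the sum over 3 libraries. The polypeptide GalNAc transferases reach 726 TPM, while the beta1,3 galactosyltransferases, St6gal1 and the beta1,6 GlcNAc transferases lie between 19.3 and 30.8 TPM.

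Trimming and branching of N-glycans came first in the pathway. Man2a2 and Man2a1, the Golgi mannosidase II isoenzymes that open the way to complex N-glycans, were both well above 10 TPM. Man2a2 had 85.2, 87.7 and 88.9 TPM in replicates 1, 2 and 3. Man2a1 had 56.7, 63.0 and 59.8 TPM and lay below Man2a2 in every library, by 0.54 ± 0.059 on the log2(TPM + 1) scale. Man1a2, which removes the outer mannoses before them, was lower at 25.6 ± 0.436 TPM, and its relative Man1a, which the symbol rule leaves out, was at 50.9 ± 0.927 TPM.

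Of the 6 Mgat genes 5 were detected, all of them above 10 TPM. Mgat5, which adds the beta1,6 branch that favours long poly-lactosamine chains bound by galectins, was the highest at 127, 131 and 132 TPM. Mgat2 had 82.8, 86.9 and 82.4 TPM, and Mgat1 had 62.5, 62.9 and 63.6 TPM. These last enzymes start the branches of every complex N-glycan, and Mgat1 lay 0.41 ± 0.046 below Mgat2 (log2(TPM + 1)), with no overlap between libraries. The beta1,4 branch was represented mainly by Mgat4b, with 40.4, 39.8 and 41.3 TPM, against 12.6, 12.7 and 13.7 TPM for its isoenzyme Mgat4a. Their difference of -1.57 ± 0.036 (Mgat4a minus Mgat4b) was -0.048 in reads per depth without the length correction. Mgat3, whose bisecting GlcNAc blocks further branching, had only 0.46, 0.37 and 0.39 TPM, or 59.6 estimated reads in all. The difference between Mgat5 and Mgat3 was 6.54 ± 0.080, the largest of the 15 pairs compared on the log2(TPM + 1) scale. The added 1 holds down pairs with a gene near 0, such as B4galt5 and B4galt6, so the ranking belongs to that scale.

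The enzymes of core and outer fucose differed in level. Fut8, which adds the core fucose to the innermost GlcNAc of N-glycans, was the second highest member of all, with 184, 186 and 189 TPM. Fut11 had 19.4, 20.0 and 20.4 TPM. Fut7, which completes sialyl Lewis X on selectin ligands, had 6.55, 8.10 and 7.25 TPM and lay 4.50 ± 0.131 below Fut8. Fut4, the other alpha1,3 fucosyltransferase of leukocytes, had 0.72, 0.38 and 0.55 TPM, lower than Fut7 in every library by 2.42 ± 0.294. The 3 remaining fucosyltransferases were near 0. Fut10 had 12 estimated reads over the 3 libraries, while Fut2 and Fut1, the alpha1,2 enzymes that make H antigens, had 2 and 0.61.

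Galactose and GlcNAc extension was led by B4galt1 and B3gnt2, the main enzymes that alternate to build lactosamine chains. B4galt1 had 92.8, 97.4 and 97.3 TPM. B3gnt2 had 92.9, 91.0 and 94.6 TPM, so the TPM ranges of these partners overlapped. In reads without the length correction they did not, with 4013, 4155 and 4142 for B4galt1 and 2361, 2278 and 2364 for B3gnt2. B4galt1 exceeded its isoenzyme B4galt3, which had 23.9, 22.2 and 25.2 TPM, by 1.97 ± 0.102. B4galt4 was at 9.29 ± 0.735 TPM, and B4galt2 at 0.907 ± 0.116 TPM reached 1 TPM in replicate 1 only. B4galt7, with 34.0, 35.9 and 38.9 TPM, makes the linker that joins proteoglycan chains to protein, as does B3galt6 at 4.02 ± 0.248 TPM.

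The remaining extension enzymes were low. B3gnt9 had 6.65, 7.41 and 7.41 TPM. B3gnt3, which extends core 1 O-glycans, was at 6.10 ± 0.376 TPM. B3gnt4, B3gnt7 and B3gnt8 stayed below 1 TPM in each library, between 24 and 48 reads in all. Among the beta1,3 galactosyltransferases, B3galt5, which makes type 1 chains, led with 14.3, 15.0 and 14.9 TPM. B3galt4, a ganglioside enzyme, had 9.03, 7.98 and 7.86 TPM, B3galt2 was at 3.63 ± 0.0862 TPM and B3galt1 at 0.18 ± 0.0755 TPM.

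Initiation of mucin-type O-glycans was the class with the most members and the highest summed level. By median member it stood at 28.8 TPM. That was below the mannosidases (59.8), the N-glycan GlcNAc transferases (51.8) and the alpha2,3 sialyltransferases (35.5). Of 13 Galnt genes 10 were detected, and 9 averaged 10 TPM or more. Galnt1, one of the broadly expressed initiating enzymes, had 334, 336 and 344 TPM, ranked 387 among all listed genes and took 46.5 ± 0.482% of its class. Galnt6 had 86.9, 89.9 and 96.3 TPM, and Galnt2, the other broadly expressed initiator, had 75.3, 78.0 and 79.2 TPM. Galnt1 exceeded Galnt2 by 2.11 ± 0.022 on the log2(TPM + 1) scale. Galnt10 and Galnt7, which prefer peptides that already carry GalNAc, stood at 57.3 ± 1.80 and 40.6 ± 1.06 TPM. Galnt12 was at 54.9 ± 1.93, Galnt3 at 28.8 ± 1.22, Galnt11 at 15.6 ± 0.673, Galnt4 at 13.1 ± 0.251 and Galnt18 at 9.42 ± 0.21 TPM. Galnt13, Galnt15 and Galnt16 had 2.26, 1.86 and 1 estimated reads over all 3 libraries.

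After initiation, the C1galt1 enzyme and its chaperone C1galt1c1 make core 1, from which core 2 branching and sialylation compete. The C1galt1 level was 29.4 ± 2.01 TPM and that of C1galt1c1 16.6 ± 1.09 TPM. Gcnt1, the leukocyte core 2 enzyme, had 17.2, 16.9 and 15.8 TPM. St3gal1, which sialylates core 1 and so stops core 2 branching, had 39.8, 41.3 and 40.3 TPM and was higher in every library, with Gcnt1 minus St3gal1 at -1.23 ± 0.067. Gcnt2, the I-branching enzyme, had 1.47, 1 and 1.37 TPM, which is 2.96 ± 0.179 below Gcnt1. Gcnt7 had 1.10, 1.48 and 1.55 TPM, and Gcnt4 had 1 read in all.

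Sialic acid in alpha2,3 linkage was represented by all 6 St3gal genes. St3gal6, which caps lactosamine and takes part in making selectin ligands, had 49.5, 47.2 and 44.8 TPM. St3gal2, an enzyme of O-glycans and gangliosides, had 39.3, 42.7 and 43.3 TPM, and St3gal1 overlapped it. St3gal4, the other lactosamine enzyme tied to selectin ligands, had 28.8, 30.2 and 32.6 TPM. St3gal3 was at 15.2 ± 1.47 TPM, and St3gal5, which makes the ganglioside GM3, at 7.57 ± 0.633 TPM. St6gal1, which caps lactosamine with alpha2,6 sialic acid and makes the ligand of CD22, had 21.8, 21.3 and 22.1 TPM. It was lower than St3gal6 by 1.08 ± 0.084 and lower than St3gal4 by 0.47 ± 0.079 on the log2(TPM + 1) scale. Both differences depended on the length correction. Without it St6gal1 minus St3gal6 was -0.26, and St6gal1 minus St3gal4 was 0.53, the other direction.

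The alpha2,8 class was almost wholly St8sia4 by level. St8sia4, a polysialyltransferase that builds chains of alpha2,8 sialic acid, was the fifth highest member, with 96.3, 96.1 and 94.1 TPM. St8sia6 had 3.83, 3.46 and 3.99 TPM. St8sia1, the GD3 synthase of gangliosides, had 1.16, 1.04 and 1.20 TPM and lay 5.50 ± 0.069 below St8sia4. St8sia3 had 4.58 estimated reads, all of them in replicate 3.

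Glycolipid enzymes among the members were mostly low. Lactosylceramide, the precursor of gangliosides, is made by B4galt5 and B4galt6. B4galt5 had 25.9, 27.5 and 27.1 TPM, against 0.03, 0.09 and 0.08 TPM for B4galt6, a difference of 4.70 ± 0.0039 that the added 1 of the log scale holds down. B3gnt5, which starts the lacto-series glycolipids, had 2.83, 3.51 and 3.49 TPM and lay 4.46 ± 0.139 below B3gnt2. All 7 analysed genes of the glycosphingolipid synthesis and breakdown list were detected. Among them B4galnt1, which makes GM2 and GD2, was far above these at 262 ± 7.47 TPM, and Ugcg, the first enzyme of the pathway, was at 24.4 ± 1.26 TPM.

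**Figure D3:**
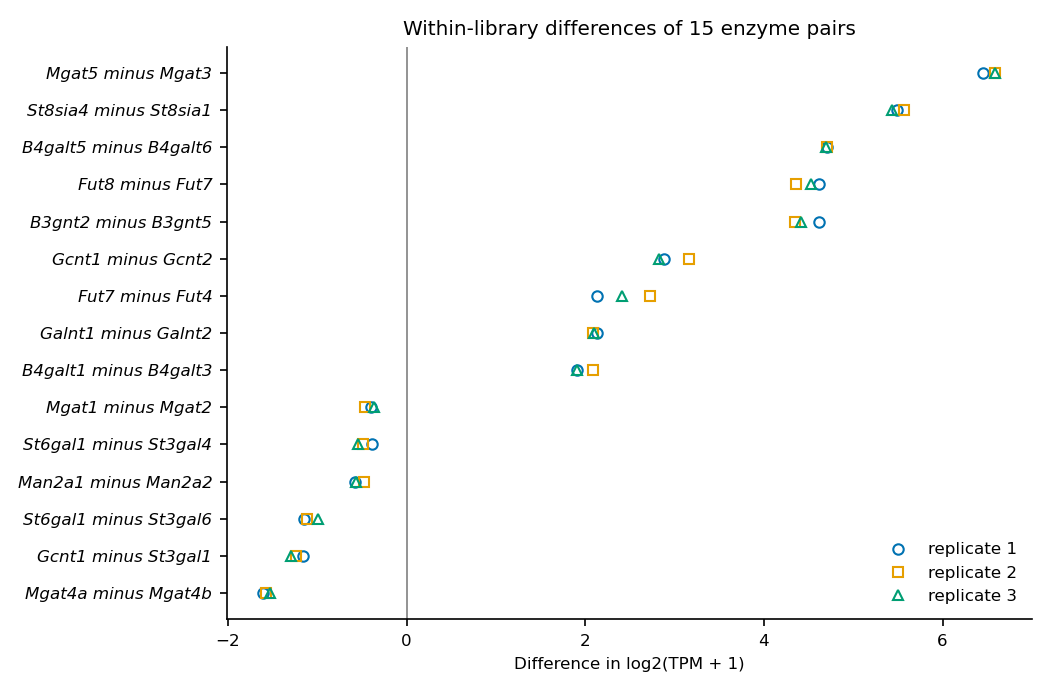
Difference in log2(TPM + 1) of 15 pairs of enzymes within each library, first gene minus second, with 1 symbol per library. In 9 pairs the first gene is higher in all 3 libraries and in 6 the second is, from 6.54 for Mgat5 minus Mgat3 to -1.57 for Mgat4a minus Mgat4b.

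All 15 pairs kept 1 direction in 3 of 3 libraries, and in each the mean difference was larger than its SD. With 3 libraries the smallest p of an exact sign-flip permutation test (two-sided) is 0.25, and every pair gave 0.25, which Benjamini-Hochberg adjustment over the 15 pairs leaves at 0.25. In the order of all members by mean level, 42 of 62 neighbouring pairs had overlapping library ranges and the rest had not. The 3 highest, Galnt1, Fut8 and Mgat5, overlapped with no neighbour, while B4galt1, St8sia4, B3gnt2, Galnt6, Man2a2 and Mgat2 formed a chain in which each overlapped the next.

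The members differed little between libraries. Among the 45 members averaging at least 100 estimated reads, the median ratio of variance to mean of depth-scaled reads was 0.834, beside 1.42 for the 9739 listed genes at that depth. Counting alone gives a ratio of 1 on average over genes, but with 3 libraries the median lies below 1. The median of 0.834 therefore does not mark a spread smaller than counting, and counting alone also takes some genes past 3. Any variation beyond counting raises the ratio more in highly expressed genes, so the comparison is a description. The ratio exceeded 3 in 4 of the 45 members (8.89%), beside 26.1% of those listed genes. These were Man2a1 (7.82), St8sia4 (5.98), Galnt6 (5.05) and St3gal2 (3.80). Replicate 3 held the highest TPM of 26 of the 45 members (57.8%), beside 40.3% of the listed genes at that depth. The level in replicate 3 over the mean of replicates 1 and 2 had a median of 1.03 and ranged from 0.924 for B3galt4 to 1.15 for St3gal3. The summed macrophage and monocyte list had a ratio of 1.39. The T cell and granulocyte lists had 1.40 and 1.31, from sums of only 12.9 and 10.0 TPM in replicate 3. The ratio was 1.10 for the B cell, 1.03 for the endothelial and stromal, 0.993 for the ILC2 and 0.937 for the epithelial list. The part of other cells in the levels of the members was not tested.

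Some members share reads or sequence with other genes, and the sources used here do not say whether reads were counted by strand. In the GENCODE M21 annotation of GRCm38, 93.2% of the exonic bases of B3gnt4 lie opposite Diablo, 90.0% of those of Galnt2 are shared with Gm20388 or 1810008B01Rik, and 66.0% of those of B3gnt2 with 3 other annotated genes. For St3gal6 26.0% lie opposite Dcbld2. Of 50-base words, 25.6% of those of B4galt2 also occur in Ccdc24 and 7.38% of those of Galnt4 in Poc1b, while Mgat5, B4galt1 and St8sia4 share under 1%. No other member shared as much as 5% of its words with another listed gene.

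In GRCm38.p6, Fut8 (Entrez gene 53618) lies on chromosome 12 from 77237430 to 77475998, and Mgat5 (107895) on chromosome 1 from 127204919 to 127488334. St8sia4 (20452) is on the same chromosome from 95587682 to 95667717, B4galt1 (14595) on chromosome 4 from 40804602 to 40853984 and B3gnt2 (53625) on chromosome 11 from 22834739 to 22860336. Mgat3 (17309), the low partner of Mgat5, is on chromosome 15 from 80173651 to 80215519.

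RefSeq sequence upstream of the start was used for 47 members, of which 36 were detected. The 250 bases before the first listed start were scored for CpG, the dinucleotide that is dense in the promoters of many broadly expressed genes. A ratio of observed to expected CpG of at least 0.6 was found in 30 of 47 members (63.8%), beside 58.4% of 12762 listed genes. It was found in 23 of 36 detected members (63.9%) and 7 of 11 members not detected (63.6%), while among all listed genes it was found in 70.5% of those detected and 31.6% of those not detected. With 11 members not detected this is a description of these genes, and counting any of several annotated starts gave 25 of 36 and 8 of 11. The CpG score, its level and the choice of the windows shown were made after seeing the data. A search of the same windows for GATAA, the core letters bound by GATA factors, on both strands was also made after seeing the data, and found them in 11 of 47 members (23.4%), beside 16.3% of listed genes. The sequences below are the lowest and the highest in CpG among members of at least 10 TPM, and then among members not detected, of the 27 whose window holds at most 30 annotated exon bases and may be shown. They are shown because windows poor and rich in CpG occur at either level, and each CpG is in capitals.
St3gal6, chr16:58524254-58524503, minus strand, 1 CpG, 47.2 TPM: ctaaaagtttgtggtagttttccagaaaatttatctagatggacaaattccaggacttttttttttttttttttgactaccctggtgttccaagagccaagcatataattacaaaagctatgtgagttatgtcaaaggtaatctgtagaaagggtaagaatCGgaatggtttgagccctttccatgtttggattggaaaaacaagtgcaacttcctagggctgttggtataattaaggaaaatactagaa
Mgat4a, chr1:37541017-37541266, minus strand, 26 CpG, 13.0 TPM: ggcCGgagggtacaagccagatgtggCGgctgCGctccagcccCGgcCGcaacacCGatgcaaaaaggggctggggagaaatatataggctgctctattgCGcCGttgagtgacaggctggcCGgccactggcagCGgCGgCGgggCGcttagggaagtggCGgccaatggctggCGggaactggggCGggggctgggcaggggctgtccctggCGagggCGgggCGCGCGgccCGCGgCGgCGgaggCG
Gcnt4, chr13:96924094-96924343, plus strand, 3 CpG, 0.00667 TPM: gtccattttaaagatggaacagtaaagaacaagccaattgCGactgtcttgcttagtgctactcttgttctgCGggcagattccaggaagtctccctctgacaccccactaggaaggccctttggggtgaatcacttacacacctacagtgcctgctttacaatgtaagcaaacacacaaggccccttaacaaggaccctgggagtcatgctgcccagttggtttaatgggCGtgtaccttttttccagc
B3galt1, chr2:67565439-67565688, plus strand, 18 CpG, 0.18 TPM: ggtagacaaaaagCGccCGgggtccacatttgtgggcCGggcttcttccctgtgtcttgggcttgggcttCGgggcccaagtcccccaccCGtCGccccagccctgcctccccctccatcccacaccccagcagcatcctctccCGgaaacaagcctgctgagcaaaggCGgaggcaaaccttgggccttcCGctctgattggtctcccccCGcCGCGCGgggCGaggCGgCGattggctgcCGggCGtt
The St3gal6 window had a ratio of 0.139 and the B3galt1 window 0.633, although the St3gal6 transcript was among the 15 highest members and B3galt1 was not detected. Each gene shown has 2 listed starts, of which the window of the first is shown. Which start is used in these cells was not tested.

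**Figure D4:**
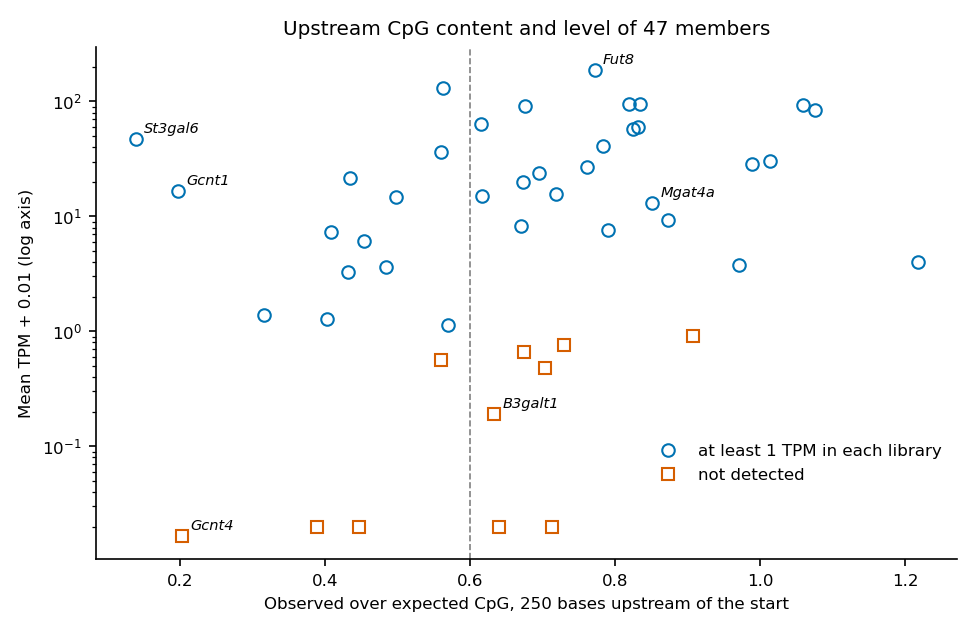
Observed over expected CpG in the 250 bases upstream of the first listed start, against mean TPM after adding 0.01 on a log axis, for 47 members. Members not detected lie on both sides of the dashed line at 0.6, from 0.203 for Gcnt4 upward, and St3gal6 stands at 47.2 TPM with a ratio of 0.139.

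Of 120 analysed genes in 10 lists of partner enzymes, carriers and lectins 103 were detected (85.8%), beside 67.3% of all listed genes. The lists were chosen with earlier results of these data known, so the higher share is a description of the chosen genes only. By list the share ran from 46.2% for the lectin list, 66.7% for the O-glycan partners and 70% for the carriers to 100% for lists such as sugar nucleotide synthesis. The median level of a list ran from 0.673 TPM for the selectins, galectins and siglecs to 382 TPM for the carriers of surface glycans, and the other 8 lists lay between 19.7 and 74.3 TPM. All 24 genes of sugar nucleotide synthesis were detected, led by the sialic acid enzymes Nans at 84.6 ± 2.60 and Cmas at 65.6 ± 7.53 TPM, and all 10 Golgi sugar nucleotide transporters, led by Slc35c2 at 66.1 ± 2.95 TPM. The transporters of CMP-sialic acid (Slc35a1), UDP-galactose (Slc35a2) and GDP-fucose (Slc35c1) stood at 30.6 ± 1.05, 18.5 ± 0.783 and 43.1 ± 1.02 TPM. All 9 N-glycan partners were detected, headed by the glucosidase II subunits Ganab and Prkcsh at 173 ± 3.76 and 148 ± 7.15 TPM. Of 13 genes of the proteoglycan list 13 were detected, headed by Chsy1, a chondroitin synthase, at 126 ± 1.63 TPM.

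In the O-glycan list 8 of 12 genes were detected. St6galnac2, St6galnac3 and St6galnac6, which add alpha2,6 sialic acid to GalNAc or gangliosides, stood at 50.7 ± 3.46, 47.4 ± 1.92 and 42.2 ± 1.66 TPM, each above St6gal1. In reads without the length correction, St6galnac2 (976, 888 and 1016) and St6galnac6 (1006, 923 and 939) lay close to St6gal1 (900, 869 and 892). St6galnac4 was at 22.8 ± 1.19 TPM, while St6galnac1 and St6galnac5, at 0.497 and 0.0633 TPM, were not detected. Among other transferases 12 of 13 were detected, including Ogt at 127 ± 1.53 TPM and the fringe genes Mfng and Lfng, which modify Notch, at 108 ± 1.65 and 59.0 ± 2.15 TPM. Of 9 genes of sulfation and sialic acid modification 7 were detected, led by Chst11 at 73.2 ± 1.03 TPM, with Cmah, which converts the sialic acid Neu5Ac to Neu5Gc, at 11.1 ± 0.965 TPM.

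Carriers and readers of these glycans were unevenly represented. Of 10 carriers 7 were detected, each above 100 TPM, with Selplg, the P-selectin ligand PSGL-1, at 1236 ± 23.8, Spn (CD43) at 542 ± 11.5 and Cd44 at 476 ± 15.4 TPM. In the lectin list 6 of 13 genes were detected, with the galectins Lgals1 at 1298 ± 13.2, Lgals9 at 171 ± 3.69 and Lgals3 at 105 ± 2.50 TPM. The 6 include Cd24a, at 7.32 ± 1.07 TPM, which encodes a surface glycoprotein and not a lectin. Of the siglecs, Siglece reached 2.23 ± 0.425 TPM while Cd22, Cd33, Siglec1, Siglecf and Siglecg stayed below 1 TPM in each library.

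**Figure D5:**
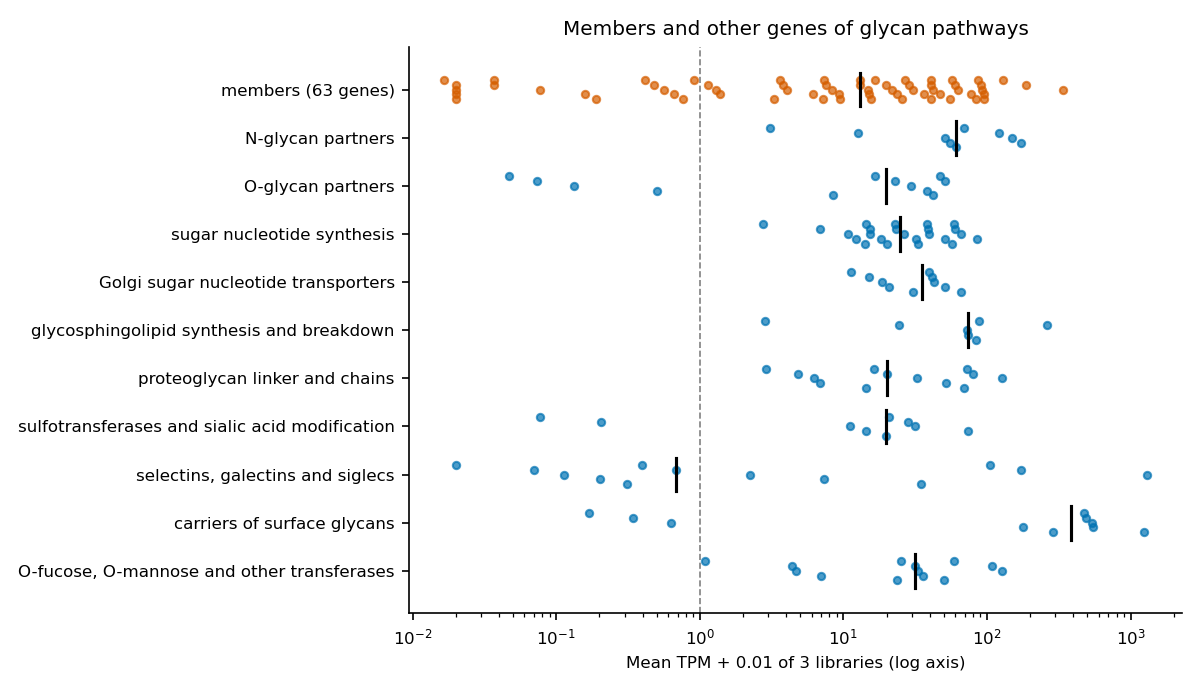
Mean TPM over 3 libraries, after adding 0.01 on a log axis, of the members and of the genes in 10 lists of the surrounding pathways, with 1 point per gene, black bars at the medians and a dashed line at 1 TPM. The median is highest for the carriers of surface glycans, at 382 TPM, and 13.1 TPM for the members.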

How the data were processed

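RNA of 3 libraries of sorted lung ILC2s was sequenced by the authors. Bowtie2, RSEM 1.3.1 and GRCm38.p6 are named in the submitters' processing notes, and the sources used here give no annotation. Per the file headers, the deposited table holds expected counts (estimated counts, not all whole), TPM, FPKM and normalised read counts, a depth-scaled signal. The deposited signal equalled the expected count rounded up times 1.00144, 1 and 0.997 in replicates 1 to 3, within a relative tolerance of 1e-06, and was used no further. TPM gave all levels. The members and gene lists were chosen with earlier results of these data known. All members are named, and from each list up to 4 of the highest genes, while further list genes were chosen after their values were seen. 1 gene of the lectin list is not reported here. Pair differences used log2(TPM + 1) within a library, which understates ratios of low genes. With 1 group, no model between groups was fitted. edgeR 4.0.16 gave TMM factors from rounded expected counts. Code was tested on simulated data. RefSeq and GENCODE M21, both on GRCm38, gave positions, sequence and overlaps, and all 63 members matched both. The analysis of upstream sequence was added after seeing the data. Phosphoglucomutase 1 was taken under the symbol Pgm2, since the table's symbols Pgm1 and Pgm2 are exchanged relative to RefSeq. The alternatives tried were FPKM, a pseudocount of 0.1, detection at 0.5 and 5 TPM, CPM without length correction, TMM rescaling, a background of genes with at least 10 reads, and leaving out each library. Depth lay between 19883728 and 19976129 reads, so a level resting on under 3 reads is within counting error of 0. Members with a value of 0 in a library are given by their reads.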

Additional observations from a re-analysis of the deposited data

How the results depend on the processing

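The number of detected members was 50 and 40 at detection levels of 0.5 and 5 TPM, 44 with FPKM, 47 with CPM, 46 after TMM rescaling and 47 without any 1 of the libraries. The level of 1 FPKM is stricter than 1 TPM, which equals between 0.475 and 0.483 FPKM in these libraries. Shares of all listed genes were not computed at these settings, so the counts are not set against a background. Without members and genes under 10 reads in all, 85.5% of members and 82.3% of genes were detected. The partner lists gave 105 and 95 detected genes at 0.5 and 5 TPM. Of 170 recomputed values 163 kept their direction or stayed within their limits. Many of them could not have come out otherwise, so this count is no measure of robustness. FPKM, TMM rescaling and a changed pseudocount cannot reverse a pair, and FPKM cannot shift a class share. Among the alternatives only CPM could reverse a pair. St6gal1 minus St3gal4 turned to 0.53 with CPM, which lacks the length correction. With CPM the share of the member that led by TPM also moved in 6 classes, among them Mgat5 to 64.9%, B4galt1 to 62.2%, B3galt5 to 63.8% and St3gal6 to 17.0%. In the alpha2,3 sialyltransferases the lead passed to St3gal1 at 35.2%, while each other class with several members kept its leader. With CPM, Mgat4a minus Mgat4b shrank to -0.048 and St6gal1 minus St3gal6 to -0.26, and B4galt1 minus B4galt3 grew to 3.16. Pairs with a gene near 0 depended on the pseudocount, with 8.01 for Mgat5 minus Mgat3 and 7.35 for B4galt5 minus B4galt6 at 0.1. Counting CpG over any annotated start, an alternative chosen after seeing the data, moved the members past 0.6 to 33, against 30 with the first start. Without 1 library no pair changed direction, which was fixed in advance because every library agreed. No paired analysis was possible because there is only 1 group. Depth limits the members under 30 reads in all, whose levels and order are not resolved.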
